A study of Mus musculus with 22 samples.

Results

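D2A1 and D20R are the mouse mammary tumour cell lines of this series that came from D2, a hyperplastic alveolar nodule line, and they were compared with the other lines grown out of spontaneous tumours. The lines were grouped by title and origin label and not by a measured value, although earlier results of these data were known when they were chosen. They are 2 of 22 lines, each read on 1 exon array, and 2 of the 8 lines labelled as spontaneous. Because D2A1 and D20R share a nodule line, they count as 1 lineage. The other 6 spontaneous lines form 4 lineages: the mean of 67NR, 4T07 and 4T1, which were grown from a single tumour, then EMT6, F311 and TSA. A gene was counted as set apart when both D2 lines lay above, or both lay below, all 4 of these lineages. The same question was then asked of all 20 other lines.

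The labels describe D2A1 and D20R in the same words, as lines characterised for metastatic ability, and give neither strain nor culture medium for them. 67NR, 4T07 and 4T1 came from a BALB/cfC3H tumour. The label of 67NR describes it as not disseminating and as carrying a transfected geneticin resistance. 4T07, transfected for resistance to thioguanine and ouabain, is described as reaching the lung without colonising it, and 4T1, a line with spontaneous thioguanine resistance, as fully metastatic. EMT6 came from the BALB/c tumour KHJJ, which itself arose after a hyperplastic alveolar nodule was implanted, so 1 of the 4 comparison lineages also has a nodule in its history. F311 is a sarcomatoid clone of a transplantable oestrogen-receptor-negative BALB/c adenocarcinoma, and TSA came from another BALB/c tumour. The wider range was set by 12 lines from genetically engineered mice (GEM) and by EPH4 and NMUMG, which are immortalized mammary epithelium. The GEM lines carry Myc (6DT1, cMyc, Myc83), Myc with VEGF (MVT1, MVT2), Wnt (2508, 2855), the SV40 T antigen (M6 and its lung metastasis M6C) or a mutated polyoma middle T (DB7), or derive from a BRCA deletion made with Wap-cre (780) or a p53 deletion with MMTV-cre (p1522). Every line is an established culture with 1 array, so the spread between lines mixes genotype, culture and array, which cannot be told apart.

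Hyperplastic alveolar nodules are lobules of the mouse mammary gland that keep a pregnancy-like architecture, can be transplanted serially, and give rise to tumours. Many arise after infection with the mouse mammary tumour virus, which activates genes of the Wnt, FGF and Notch pathways by inserting next to them. In published work on these lines, D2A1 cells grow into metastases after reaching the lung, whereas D20R cells persist there largely without dividing, and fibronectin and integrin signalling have been tied to that difference. Hey1, the gene given as a marker of the D2 pair, encodes a transcriptional repressor switched on by Notch receptors and by bone morphogenetic proteins (BMPs).

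The table held 23332 entries, of which 16755 were tested, and 14860 genes had a probe set with a single symbol. Values ran from 2.74 to 13.9 and are given as log2 levels, the scale that fits this range. Array medians ran from 6.78 in D2A1, the lowest of the 22, to 7.17. The median of D20R was 6.92. Levels under 6.78 are close to the background of these arrays, so the size of a change that starts or ends there is uncertain. Over all probe sets the median difference, D2 minus the other spontaneous lineages, was -0.08, and it was 0.0 after each array was centred on its median. Cells of other types were checked by their markers. Median levels in D2A1 and D20R were 5.38 and 5.72 over 11 immune genes, 5.40 and 5.51 over 9 endothelial genes, 5.22 and 5.43 over 6 adipocyte genes, and 6.38 and 6.92 over 6 skeletal muscle genes. All of these lay at or below the median of their own array. In none of the 4 lists did a member lie above the 4 lineages in both D2 lines, against 6.16% of all probe sets. Below them lay 3 endothelial genes (33.3%) and 1 muscle gene (16.7%), against 7.0% of all probe sets. After centring 1 immune, 1 endothelial and 1 muscle gene lay below.

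Both D2 lines lay above the 4 other lineages at 1032 of 16755 probe sets (6.16%) and below them at 1173 (7.0%), in all 2205 (13.2%). The second count holds 507 probe sets, and the first 82, at which every value was under 6.78. Against all 20 other lines, both D2 lines were highest at 154 probe sets (0.919%) and lowest at 68 (0.406%). Of the 154, 147 had both D2 levels above 6.78, and of the 68, 40 had all 20 other levels above it. The smallest two-sided exact permutation p for 2 against 4 values is 0.133, so these counts carry no test. After centring the counts against the 4 lineages were 1302 above and 1136 below, and after quantile normalization 1176 and 1290. In the fit of all 17 lineages with limma, which takes the spread of the D2 lineage to be that of the other lineages, 2 probe sets were higher (0.0119%) and 3 lower (0.0179%) in D2 at an adjusted p of 0.05, and 321 (1.92%) had an unadjusted p under 0.05. The 5 genes were Ptgs2, Got1 and Cd82, which were lower, and Morc1 and Hs6st2, which were higher. Only Ptgs2 and Got1 were far apart from the rest in both D2 lines.

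Ptgs2 encodes the inducible cyclooxygenase that makes the precursor of prostaglandins. Its level was 4.81 in D2A1 and 5.18 in D20R. It was 9.87 in 67NR, 10.37 in 4T07, 11.50 in 4T1, 11.29 in EMT6, 11.27 in F311 and 10.27 in TSA. Both D2 lines thus sat in the background range, whereas every other spontaneous line expressed the gene strongly. The other lineages averaged 10.85 ± 0.51 (SD, n = 4), and the difference of -5.85 (SE 0.72) passed in limma at an adjusted p of 0.00677. GEM lines ran from 8.69 in 6DT1 to 11.41 in 2855, with EPH4 at 11.04 and NMUMG at 9.88, so D20R lay below all 20 other lines with a gap of -3.51. No other gene with a single symbol was so far below the whole series in both D2 lines. The arrays read RNA of whole cultures, so fewer expressing cells and less RNA per cell cannot be told apart. Ptgs2 passed in each of 17 further fits, with adjusted p from 8.01e-06 to 0.0285. The promoter is shown because this gene separates the D2 pair most clearly from the other lines, as 250 bases before to 50 after the RefSeq start on GRCm38.p6, chr1:150099781-150100080, plus strand. Capitals mark, from left to right, an Sp1 motif (GGGCGG), a C/EBP motif (TTGCGCAA) and an E-box (CACGTG).
Ptgs2 promoter: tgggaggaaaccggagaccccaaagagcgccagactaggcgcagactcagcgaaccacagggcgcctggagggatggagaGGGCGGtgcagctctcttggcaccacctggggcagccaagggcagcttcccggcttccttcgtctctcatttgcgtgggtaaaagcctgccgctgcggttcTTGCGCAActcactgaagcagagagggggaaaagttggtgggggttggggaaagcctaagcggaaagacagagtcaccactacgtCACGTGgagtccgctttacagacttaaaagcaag
Both strands were searched for these motifs and for the TATA box letters TATAAA, which this window lacks. The C/EBP letters, which start at position -69 when the start site is +1, occur in 0.183% of 32851 such promoters, the E-box letters in 7.15% and the Sp1 letters in 35.7%. The window holds 16 CpG pairs, against a median of 7.

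The genes beside Ptgs2 did not share its pattern. Among the 3 measured genes on each side the differences ran from -0.63 to 0.16. Its immediate neighbour Pla2g4a, which encodes the phospholipase that releases the substrate of the cyclooxygenase, was at 9.16 in D2A1 and 9.63 in D20R, within the range of the other lineages from 8.98 to 9.68. In a list of 18 measured prostanoid genes, drawn up after the Ptgs2 values were seen, 0 lay above and 2 below the 4 lineages in both D2 lines (11.1%, against 7.0% of all probe sets). Ptgs2, for which the list was drawn up, was 1 of the 2, so its part of that share was fixed in advance. The other was Ptges3, a prostaglandin E synthase and chaperone partner, at 7.01 and 7.0 against 7.32 to 7.57 over the 4 lineages. Ptges, the inducible prostaglandin E synthase, read 6.94 in D2A1 and 6.18 in D20R. It was higher in most other lines, at 9.53 in 67NR, 9.96 in 4T07, 8.09 in 4T1, 9.95 in EMT6 and 10.11 in TSA, but F311 at 6.58 overlapped the D2 pair. The prostaglandin receptor gene Ptger4 was at 7.40 and 8.46, with EMT6 between them at 8.34. The median difference of the list was -0.25, against -0.08 over all probe sets.

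Got1 encodes the cytosolic aspartate aminotransferase, which moves nitrogen between aspartate and glutamate and is a step of the malate-aspartate shuttle. Its level was 5.55 in D2A1 and 6.21 in D20R. It was 11.49 in 67NR, 11.24 in 4T07, 10.99 in 4T1, 11.36 in EMT6, 10.17 in F311 and 11.33 in TSA. The groups did not overlap, and again both D2 lines lay under every array median. The difference was -5.15 (SE 0.71) from a mean of 11.03 ± 0.57 (SD, n = 4), with an adjusted p of 0.0147 in limma. Of all 20 other lines the lowest was DB7 at 8.76, a gap of -2.55 from there down to D20R. The call was lost in 2 of 17 further fits, at an adjusted p of 0.052 without the lineage of 67NR, 4T07 and 4T1 and of 0.0822 in a fit of the 5 spontaneous lineages alone. The promoter window on GRCm38.p6, chr19:43524556-43524855, minus strand, is shown beside that of Ptgs2 because these are the 2 genes that limma called lower with both D2 lines under every array median. It has 18 CpG pairs and none of the 4 motifs searched, so it carries no capitals.
Got1 promoter: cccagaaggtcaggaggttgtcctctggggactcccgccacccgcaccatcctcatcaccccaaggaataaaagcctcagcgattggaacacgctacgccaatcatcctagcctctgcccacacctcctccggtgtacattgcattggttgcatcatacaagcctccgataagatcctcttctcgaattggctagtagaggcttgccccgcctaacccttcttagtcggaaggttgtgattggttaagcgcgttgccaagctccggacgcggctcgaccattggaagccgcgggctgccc
The 6 measured genes nearest to Got1 differed by -1.34 to 0.06. The lowest was Loxl4, a matrix crosslinking enzyme, at 7.99 in D2A1 and 7.70 in D20R against 8.64 to 9.67 in the other lineages. In a list of 14 measured shuttle and aspartate genes, drawn up after Got1 was seen, the other 13 gave 1 above and 1 below in both D2 lines (7.69% each, against 6.16% and 7.0% of all probe sets), or 2 above and 0 below after centring and 0 above and 1 below after quantile normalization. Mdh2, the mitochondrial malate dehydrogenase, read 12.21 and 12.04 against 11.73 to 12.00 over the 4 lineages. Asns, which makes asparagine from aspartate, read 11.06 and 10.87 against 11.30 to 11.61. The shuttle carriers Slc25a11, Slc25a12 and Slc25a13 differed by 0.10, -0.05 and 0.02.

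The other calls of the fit rested on 1 of the D2 lines. Cd82 encodes a tetraspanin known as a metastasis suppressor. It read 6.86 in D2A1 and 10.11 in D20R, while the other spontaneous lines ran from 10.73 in TSA to 11.96 in 4T07. Both D2 lines were below all 20 other lines, but for D20R the gap was only -0.31, since EPH4 read 10.41. The limma difference was -2.83 (SE 0.45, adjusted p 0.0385), and without D2A1 it was -1.21 (SE 0.45, adjusted p 1.0). Morc1, which silences transposons in the male germ line, read 6.55 in D2A1 and 4.84 in D20R against 4.29 to 4.59, all of it under the lowest array median. Its difference was 1.22 (SE 0.19, adjusted p 0.0302 in limma), and 0.37 without D2A1 (adjusted p 1.0). Hs6st2, a sulfotransferase of heparan sulfate chains, read 8.14 in D2A1 and 6.23 in D20R against 5.09 to 5.93. Its difference of 1.73 (SE 0.27, adjusted p 0.0302 in limma) became 0.77 without D2A1 (adjusted p 1.0), and EPH4 (7.53) and NMUMG (7.71) lay between the D2 lines.

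**Figure D1:**
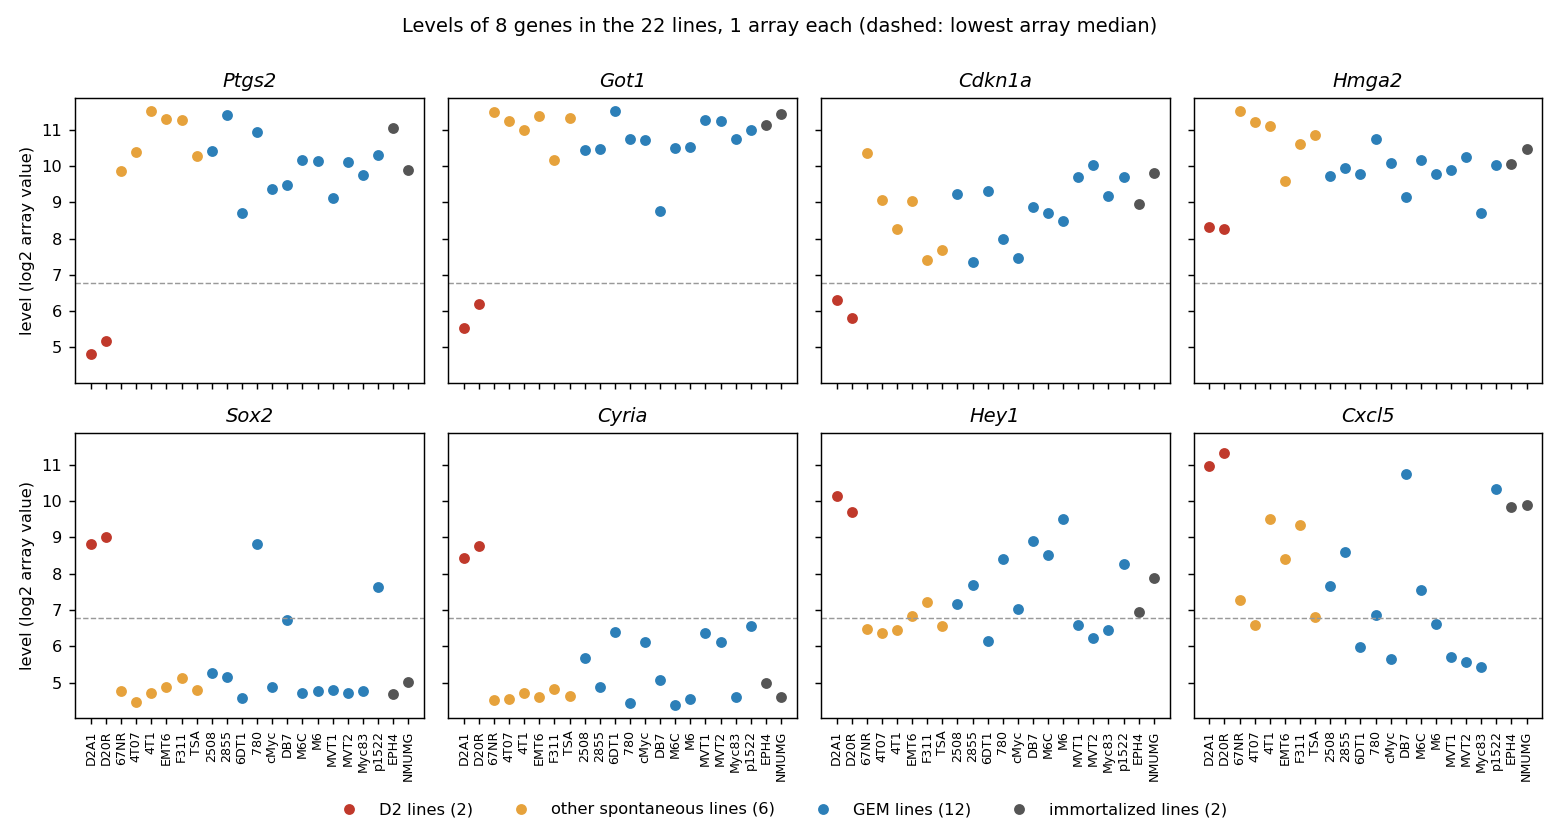
Log2 levels (vertical axis) of 8 genes in the 22 lines (horizontal axis), 1 point per line and array, coloured by group, with the lowest array median of 6.78 dashed. The D2 lines are the lowest of the 22 for Ptgs2, Got1, Cdkn1a and Hmga2 and the highest for Sox2, Cyria, Hey1 and Cxcl5, with 780 within 0.01 of D2A1 for Sox2.

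Further genes lay below all 20 other lines in both D2 lines. Cdkn1a encodes the cyclin-dependent kinase inhibitor that p53 induces to stop the cell cycle. It read 6.31 in D2A1 and 5.80 in D20R, against 10.36 in 67NR, 9.05 in 4T07, 8.26 in 4T1, 9.03 in EMT6, 7.40 in F311 and 7.68 in TSA. The groups did not overlap, and D2A1 also lay below all 20 other lines, with a gap of -1.05 to 2855 at 7.36. The difference of -2.28 (SE 0.84) did not pass in limma (adjusted p 1.0). p1522, whose label gives a p53 deletion, read 9.68. Hmga2, an architectural chromatin protein of embryonic and tumour cells, read 8.33 and 8.27 against 9.58 in EMT6 to 11.52 in 67NR. It was also lowest of the 22 lines in the D2 pair, with a gap of -0.36, and its difference was -2.28 (SE 0.61, adjusted p 1.0 in limma). Fhl2, a LIM-domain coregulator, read 7.65 and 8.09 against 8.83 to 9.72. Prrg4, a transmembrane Gla protein, read 6.84 and 6.26 against 8.18 to 9.68. Tmem41b, a lipid scramblase needed for autophagy, read 8.24 and 8.48 against 8.85 to 9.49. These 3 genes also lay below the whole series in both lines, with gaps of -0.70, -0.29 and -0.37.

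Most other targets of p53 did not, like Cdkn1a, lie below the 4 lineages in both D2 lines. In a list of 19 measured targets, drawn up after the Cdkn1a values were seen, 2 lay below the 4 lineages in both D2 lines and 1 above. These were 10.5% and 5.26%, against 7.0% and 6.16% of all probe sets. Cdkn1a, for which the list was drawn up, was 1 of the 2, so its part of the 10.5% was fixed in advance. The median difference of the list was -0.14, and 14 differences were below 0 (73.7%, against 62.6% of all probe sets), with 7 above 0 after centring. The median level of the list was 7.21 in D2A1 and 7.64 in D20R, against 7.54 to 8.83 in the 20 other lines. After centring 3 genes lay below the 4 lineages in both D2 lines. The second low gene was Ccng1, a cyclin G gene, at 10.63 and 10.95 against 11.37 to 12.04 over the 4 lineages. The high gene was the death receptor gene Fas, at 6.82 and 6.18 against 4.94 to 5.55 over them. Mdm2, which encodes the ubiquitin ligase of p53, overlapped the other lines at 8.27 and 7.64, with TSA at 7.99. Of 27 cell cycle genes, 2 lay above and 1 below, against 6.16% and 7.0% of all probe sets. Mcm5, a subunit of the replicative helicase, was at 11.88 and 11.68, above all 20 other lines, of which M6C at 11.45 was highest. Ccna2, the S-phase cyclin, read 12.34 and 11.98 against 11.54 to 11.88 in the other spontaneous lines. The low gene was Cdkn1a itself. Cdkn1b, its relative, was at 9.50 and 9.16, which overlapped TSA at 9.35.

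Most other genes with wide gaps on the low side separated the D2 pair from the lineages but not from every line. In 5 of them, 67NR, whose value was averaged with those of 4T07 and 4T1, was as low as the D2 lines. These were Galnt3, which starts mucin-type glycosylation (D2A1 5.02, D20R 6.15, 67NR 5.12), Cyba, a membrane subunit of NADPH oxidase (7.06, 7.43 and 7.47), the myosin gene Myo1d (5.82, 5.48 and 5.47), the imprinted growth gene Phlda2 (5.60, 6.14 and 5.92) and Serinc2 (7.48, 7.79 and 7.61). Taken line by line, Galnt3, Myo1d, Phlda2 and Serinc2 therefore overlapped, and Cyba was only narrowly apart from 67NR. The remaining genes kept all 6 lines higher. Dusp9, a MAP kinase phosphatase, was at 8.01 and 8.05 against 9.61 to 11.54. Msln, which encodes the surface protein mesothelin, was at 7.53 and 7.49 against 8.86 to 11.11. Il18rap, an accessory interleukin receptor chain, was at 5.35 and 5.90 against 6.52 to 8.70. The differences of these 8 genes ran from -2.90 for Galnt3 to -2.12 for Il18rap, and none passed in limma (adjusted p 1.0 each).

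Hey1 marked the D2 pair on the high side. It read 10.15 in D2A1 and 9.69 in D20R. It read 6.47 in 67NR, 6.36 in 4T07, 6.45 in 4T1, 6.83 in EMT6, 7.23 in F311 and 6.56 in TSA. The groups did not overlap, and the gap from D20R to F311 was 2.46. GEM lines had a median of 7.44 and ran from 6.14 in 6DT1 to 9.51 in M6, so the D2 lines were the highest of all 22 by 0.18. The difference from the 4 lineages, whose mean was 6.76 ± 0.35 (SD, n = 4), was 3.15 (SE 0.98), and it did not pass in limma (adjusted p 1.0). It passed in 1 of 17 further fits, the one that took the 2 D2 lines as independent replicates (adjusted p 0.0156). Of the 6 measured genes nearest to Hey1, 5 had a difference above 0, against 6273 of 16755 probe sets. For 3 of the 6 both D2 lines lay above the 4 lineages, against 6.16% of all probe sets. The differences ran from -1.2 to 2.29, and none passed in limma. Il7, a lymphocyte growth factor gene, was at 8.41 in D2A1 but 6.07 in D20R against 4.48 to 5.58 over the 4 lineages. Mrps28, a mitochondrial ribosomal protein gene, was at 10.04 and 9.44 against 9.03 to 9.31, and Zfp704, a zinc finger gene, at 7.91 and 7.54 against 6.46 to 7.23. The gene with a difference below 0 was Tpd52, which is often amplified in tumours, at 6.13 and 5.37 against 5.99 to 7.79.

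Of 29 measured members of the Notch pathway, 4 lay above the other lineages in both D2 lines (13.8%, against 6.16% of all probe sets). Below them lay 0, against 7.0% of all probe sets, or 1 after centring. Hey1, the gene given as the marker, was 1 of the 4, so its part of the 13.8% was fixed in advance. The median difference was 0.06. Besides Hey1, these were Rfng, a fringe enzyme that modifies Notch receptors (8.96 and 8.70 against 7.90 to 8.27), Maml1, a coactivator (8.01 and 8.12 against 7.52 to 7.82), and Pofut1, which fucosylates the receptors (9.40 and 9.30, with 67NR at 9.58). Their differences of 0.72, 0.34 and 0.30 were small beside that of Hey1. Rfng was also above all 20 other lines, by 0.17.

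Some receptors, ligands and targets of the pathway differed between the D2 lines. Notch1 was 6.39 in D2A1, below all 20 other lines, and 8.96 in D20R. The ligand gene Jag1 was 7.64 in D2A1 and 10.44 in D20R, and the ligand gene Dll4 was 6.12 and 6.99. The target Hes1 was 7.02 in D2A1, the lowest of the spontaneous lines, and 9.07 in D20R, the highest of them. Nrarp, a feedback inhibitor, was 6.86 and 8.60, and Hey2, a relative of Hey1, was 4.87 and 6.03. So 6 members were higher in D20R than in D2A1 by more than 1 log2 unit, namely Notch1, Jag1, Hes1, Nrarp, Adam10 (9.17 and 10.36) and Hey2, and 0 the other way, whereas Hey1 differed by 0.45 in the opposite direction. Over all probe sets 367 (2.19%) were higher in D20R by that much and 356 (2.12%) in D2A1. Notch2 (9.58 and 9.96), Notch3 (6.94 and 7.43) and Rbpj, the DNA-binding partner of the receptors (6.94 and 6.84), lay within the range of the other spontaneous lines, except that Notch3 in D20R was just above it.

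**Figure D2:**
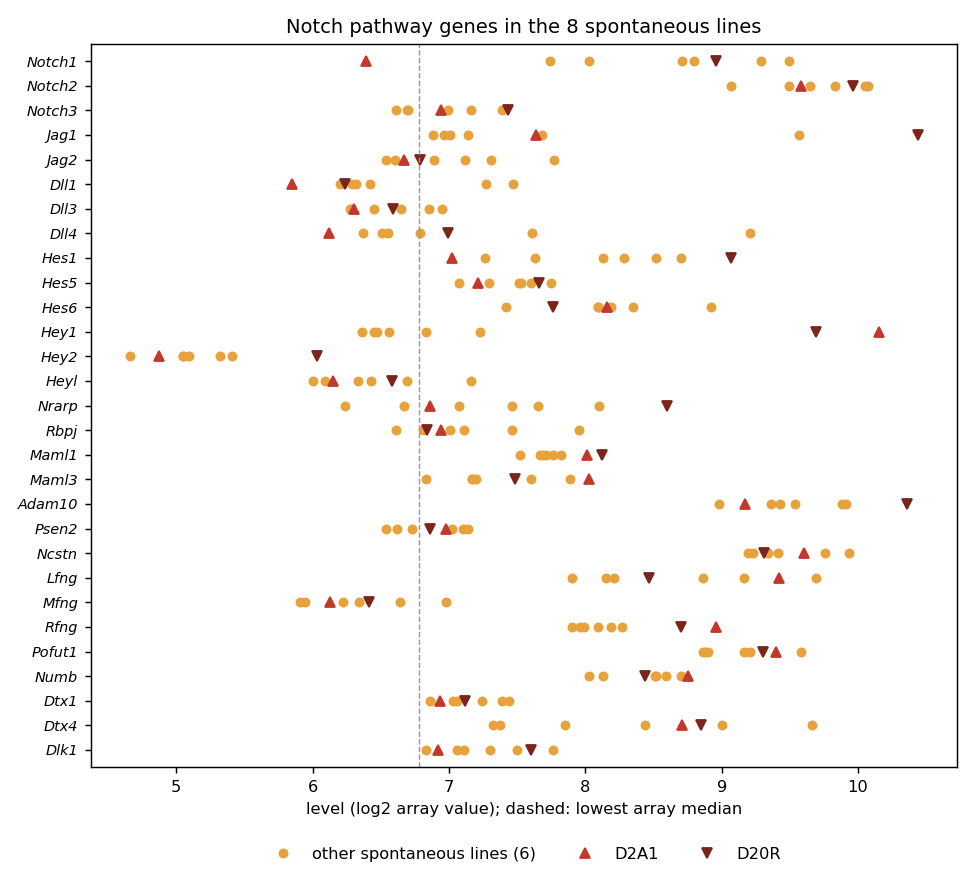
Log2 levels (horizontal axis) of the 29 measured Notch pathway genes in the 8 spontaneous lines, with 1 point per line and the lowest array median of 6.78 dashed. Hey1 is the gene with both D2 lines far to the right of the 6 other lines, while Notch1, Jag1, Hes1 and Nrarp are low in D2A1 relative to D20R.

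Hey1 also responds to BMPs. Of 26 measured BMP genes, 4 lay above and 3 below in both D2 lines (15.4% and 11.5%, against 6.16% and 7.0% of all probe sets), with a median difference of -0.02. After quantile normalization 1 lay above and 2 below. The genes above included Id3 and Id2, BMP-induced inhibitors of basic helix-loop-helix factors. Id3 read 9.55 and 10.54 and was the highest of the 22 lines in the D2 pair, with EMT6 nearest at 9.49. Id2 read 10.87 and 10.55, and EMT6 at 10.54 nearly reached them. Fstl3, a secreted activin inhibitor, read 10.32 and 10.63 against 8.47 to 10.16, and the signal transducer gene Smad9 read 7.22 and 6.86 against 5.67 to 6.75. The genes below were the ligands Bmp2 (5.43 and 5.62), Bmp4 (5.88 and 5.64) and Bmp7 (5.55 and 5.98). Bmp2 was near background in every spontaneous line, the highest being EMT6 at 6.0 and TSA at 6.02. Bmp7 was abundant in F311 (10.78), 4T1 (9.80) and TSA (8.68), but 67NR and 4T07 overlapped the D2 pair at 5.98 and 5.71. 4T1 likewise overlapped for Bmp4, at 5.53. No BMP gene passed in limma.

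Sox2, a transcription factor of embryonic stem cells and of stem-like tumour cells, had the widest gap of all genes that were higher in D2. It read 8.83 in D2A1 and 9.01 in D20R. The other spontaneous lines all lay near background, at 4.78 in 67NR, 4.47 in 4T07, 4.72 in 4T1, 4.89 in EMT6, 5.13 in F311 and 4.81 in TSA. Sox2 was not confined to the D2 lines, since 780 read 8.82, p1522 7.63 and DB7 6.72, while every other line read 5.26 or less. The difference was 4.05 (SE 1.26, adjusted p 1.0 in limma over 17 lineages). It passed in 2 of 16 further fits, those of the 5 spontaneous lineages alone and of the 2 D2 lines as replicates. Sox2ot, the transcript that spans the gene, stayed at 4.11 and 4.08, and the 6 nearest measured genes differed by -0.24 to 0.65.

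Cyria, which encodes a Rac-binding inhibitor of branched actin assembly, had the next gap. It read 8.42 in D2A1 and 8.76 in D20R against 4.53 in 67NR, 4.55 in 4T07, 4.73 in 4T1, 4.62 in EMT6, 4.83 in F311 and 4.63 in TSA. The highest of all 20 other lines was p1522 at 6.56, so the D2 lines stood 1.86 above the whole series, the widest such gap of any gene with a single symbol. The difference was 3.92 (SE 0.73), from a mean of 4.67 ± 0.11 (SD, n = 4), with an adjusted p of 0.181 in limma. It passed in 4 of 16 further fits. Genes next to Cyria, among them Mycn (5.87 and 6.44) and Ddx1 (11.65 and 11.22), differed by -0.07 to 0.40. The promoters of Sox2 (GRCm38.p6 chr3:34649745-34650044, plus strand) and Cyria (chr12:12261927-12262226, plus strand) are shown as the counterparts, on the high side, of the Ptgs2 and Got1 windows. Capitals mark the Sp1 letters GGGCGG or their complement.
Sox2 promoter: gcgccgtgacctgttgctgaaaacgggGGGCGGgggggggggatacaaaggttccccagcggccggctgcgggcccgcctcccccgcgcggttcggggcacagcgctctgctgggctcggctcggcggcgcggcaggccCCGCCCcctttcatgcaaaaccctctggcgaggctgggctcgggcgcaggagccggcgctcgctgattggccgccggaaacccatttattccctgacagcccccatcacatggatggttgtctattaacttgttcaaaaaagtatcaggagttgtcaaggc
Cyria promoter: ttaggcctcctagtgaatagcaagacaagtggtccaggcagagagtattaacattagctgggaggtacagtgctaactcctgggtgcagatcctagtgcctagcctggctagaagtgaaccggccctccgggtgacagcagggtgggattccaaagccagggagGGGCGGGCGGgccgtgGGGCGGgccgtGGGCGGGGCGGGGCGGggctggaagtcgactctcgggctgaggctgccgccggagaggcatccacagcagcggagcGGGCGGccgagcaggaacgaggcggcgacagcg
The Sox2 window has 27 CpG pairs and 2 Sp1 matches. The Cyria window has 22 CpG pairs and 7 Sp1 matches, several of them overlapping. All 4 windows printed here were richer in CpG pairs than the median promoter, on the low side as on the high side. Hey1 had no entry among the promoter sequences.

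Further genes were high in both D2 lines. Cxcl5, a chemokine that attracts neutrophils, read 10.96 and 11.32, the highest of all 22 lines. The other spontaneous lines ran from 6.58 in 4T07 to 9.50 in 4T1, and DB7 came nearest at 10.74. The difference was 3.06 (SE 1.73, adjusted p 1.0 in limma). Of 28 cytokine and chemokine genes 3 lay above (10.7%) and 2 below (7.14%, or 4 genes after centring), against 6.16% and 7.0% of all probe sets. Cx3cl1, a membrane-bound chemokine, read 10.53 and 11.22 against 8.26 to 10.02 and was also the highest of the 22 lines, by 0.32. Cxcl1, the third, read 8.14 and 7.93 and was overlapped by 4T1 at 8.37.

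The remaining 8 of the 12 genes with the widest gaps on the high side had various roles. Fzd3, a Wnt receptor, read 7.79 and 7.67, and 4T1 at 7.24 was the only other spontaneous line above 5.26. Vldlr, a lipoprotein and reelin receptor, read 8.34 and 9.13 against 5.80 to 6.35. Adgrl3, an adhesion receptor of the latrophilin family, read 8.77 and 8.85 against 6.04 to 6.79. These 3 receptors separated the D2 pair from all 6 other spontaneous lines, but GEM lines reached 8.33, 8.79 and 9.83. Antxr1, a matrix-binding receptor, read 10.45 and 10.48 against 6.19 to 9.17, and 2508 read 10.49. Masp1, a protease that starts the lectin pathway of complement, read 9.51 and 9.15 against 6.48 to 7.23, and 2855 read 9.80. B4galt6, which makes lactosylceramide, read 8.28 and 8.50. 4T1 at 8.20 almost reached it, and 780 at 9.75 exceeded it. Camk2n1, an inhibitor of a calmodulin-dependent kinase, read 7.31 and 7.13 against 5.45 to 5.96, but NMUMG read 9.21 and M6 8.24. Aldh3a1, an aldehyde dehydrogenase, read 10.98 and 8.78, and 67NR at 10.47 lay between them. The differences of these 8 genes ran from 1.49 for Camk2n1 to 2.76 for Aldh3a1, and none passed in limma (adjusted p 1.0 each).

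A second set was modest in size but beyond all 20 other lines. Kazald1, a secreted Kazal-domain protein, read 6.88 and 7.30, and the highest other line was EMT6 at 6.15. The centrosome gene Ninl read 8.08 and 8.01, and M6 was nearest at 7.43. Tmod2, which caps actin filaments, read 7.03 and 7.01, and 780 was nearest at 6.48. The D2 levels of these 3 genes were thus alike in both lines and 0.53 to 0.73 above the series. Nr1h3, the oxysterol receptor LXR alpha, read 8.32 and 7.47, with a gap of 0.47. Taf12, a subunit of the general transcription factor TFIID, read 8.96 and 9.45, with a gap of 0.46. Ly75, an endocytic receptor best known in dendritic cells, read 9.60 and 9.59, with a gap of 0.43. Carm1, an arginine methyltransferase, read 11.60 and 11.58, above every other line by 0.37. None of the 7 passed in limma, where adjusted p ran from 0.541 for Tmod2 to 1.0.

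Several epithelial genes were low in the D2 lines, as in 67NR, EMT6 and TSA, and high in 4T07, 4T1 and F311. Cdh1, which encodes the adhesion protein E-cadherin, read 6.41 in D2A1 and 7.30 in D20R. It was similarly low in 67NR (6.64), EMT6 (6.66) and TSA (6.45), and high in 4T07 (11.02), 4T1 (10.88) and F311 (10.51). Epcam, an epithelial surface protein, was 5.55 and 5.83, and Esrp1, an epithelial splicing regulator, 5.06 and 5.18, with the same lines high. Of 27 measured epithelial genes 0 lay above and 5 below in both D2 lines (18.5%, against 7.0% of all probe sets), and the median difference was -0.74. The 3 with the widest gaps were the keratin gene Krt19 (5.34 and 5.66 against 5.66 to 9.25), Esrp2 (7.34 and 7.69) and the desmosome gene Pkp3 (7.29 and 7.64). For Esrp2, EMT6 was close at 7.76, and 67NR, which was averaged with 4T07 and 4T1, was lower at 7.02. For Pkp3 the other lines ran from 7.68 in TSA to 8.87 in F311. None of these genes passed in limma. Some epithelial genes stayed on. Krt18, a simple-epithelium keratin gene, read 9.09 and 9.89 against 6.16 in 67NR, 8.64 in EMT6 and 8.16 in TSA. Perp, a desmosome component, read 10.08 and 10.70 against 5.32 in 67NR, 6.01 in TSA and 8.47 in EMT6, and Spint2, a protease inhibitor, read 9.12 and 9.28. Basal genes gave 0 above and 2 below of 16 (12.5%, against 7.0% of all probe sets), or 4 below after centring and 6 after quantile normalization. The 2 were the keratin gene Krt17 (5.78 and 5.96) and the myosin kinase gene Mylk (5.51 and 5.66). Krt17 was under 6.78 in all 8 spontaneous lines, with 4T07 at 5.79 between the D2 lines. For Mylk 4T1 at 5.62 lay between them and TSA was at 5.67, while 67NR read 7.55.

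Among 34 mesenchymal and matrix genes, 8 lay above (23.5%) and 1 below (2.94%, or 2 genes after centring and 3 after quantile normalization) in both D2 lines, beside 6.16% and 7.0% of all probe sets, and the median difference was 0.10. The receptor genes of platelet-derived growth factor were 2 of the 8. Pdgfra read 8.76 and 9.06, while the other lines ran from 6.22 to 7.25 except 67NR at 9.27. Pdgfrb read 9.35 and 9.22 against 5.90 in 4T07 to 9.01 in 67NR. The proteoglycan gene Bgn read 7.34 and 7.73 against 5.57 to 6.22, with no overlap. Transcription factors that repress E-cadherin or mark mesenchyme followed. Snai1 read 9.27 and 8.89 and was the highest of the 22 lines in the D2 pair, with p1522 nearest at 8.60. Zeb1 read 7.49 and 6.98, and 67NR was higher at 7.98. Prrx1 read 10.44 and 11.95, with 67NR between them at 10.50. The matrix gene Fn1 read 12.53 and 12.61, above 67NR at 12.52 by 0.01, and Col5a1 read 8.07 and 9.02 against 7.26 to 8.0. The 1 gene below was Cdh2, which encodes N-cadherin, at 5.95 and 6.26, where 67NR (11.34) and TSA (10.28) were high and the rest were near background. Vim, the intermediate filament gene of mesenchyme, was high in all 8 spontaneous lines, at 13.07 and 13.14 against 12.41 to 13.19, and low in EPH4 at 8.37. None of these genes passed in limma.

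**Figure D3:**
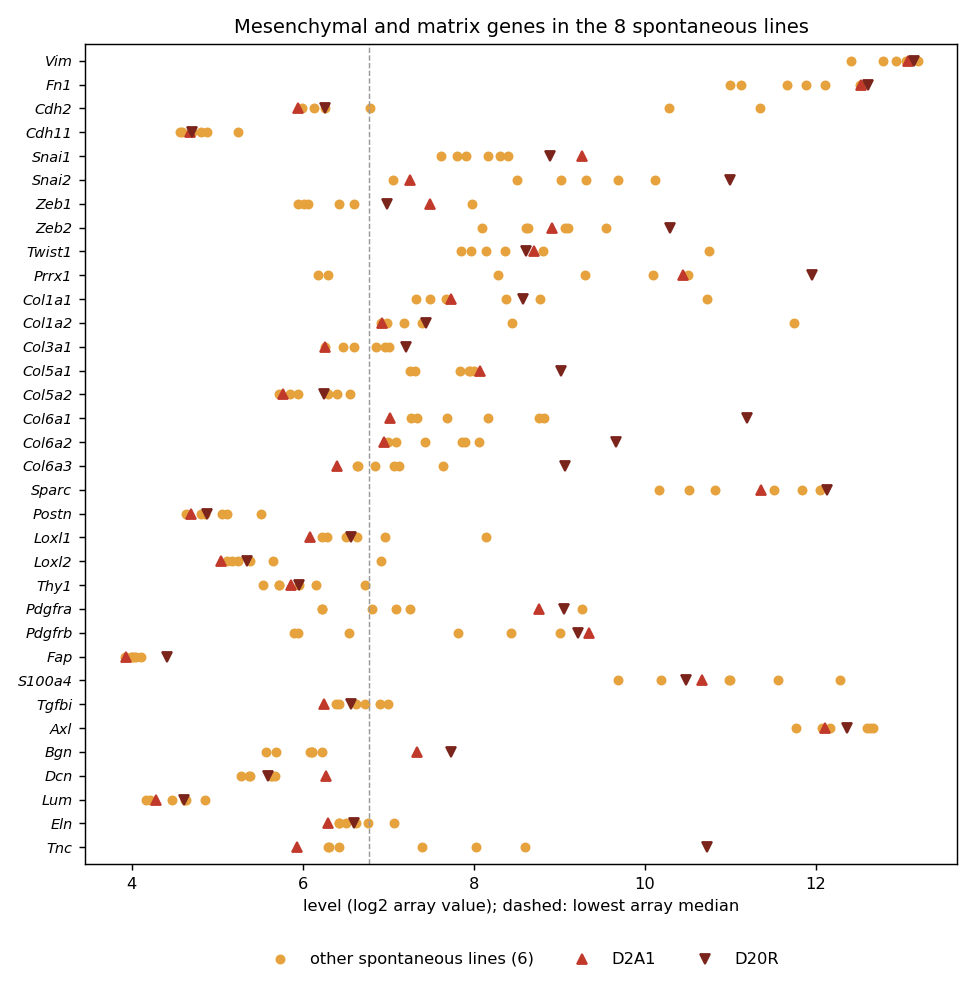
Log2 levels (horizontal axis) of 34 mesenchymal and matrix genes in the 8 spontaneous lines, 1 point per line, with the lowest array median of 6.78 dashed. Both D2 lines lie to the right of all other spontaneous lines for Bgn, Snai1, Pdgfrb, Col5a1 and, barely, Fn1, whereas Tnc, Col6a1, Col6a2, Col6a3 and Snai2 are high in D20R alone of the pair.

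Genes tied to dormancy and outgrowth of disseminated cells gave 5 above and 2 below of 22 measured (22.7% and 9.09%, against 6.16% and 7.0% of all probe sets), with a median difference of -0.13. Sox2 and Fn1, described above, were 2 of the 5, and the genes below were Bmp7 and Mylk, also described above. Vcam1, an adhesion molecule, read 8.10 and 7.68 against 5.16 to 7.24 with 4T1 between them at 7.90. Bhlhe41, a repressor of the circadian clock, read 7.61 and 7.74, and 67NR was higher at 8.15. Itgb1, the common beta chain of fibronectin and collagen integrins, read 11.40 and 11.32, and 4T07 and 4T1 were level with it at 11.33 and 11.45. Between the D2 lines the gene that differed by more than 1 log2 unit was Tgfb2, a growth factor gene, at 6.5 in D2A1 and 9.87 in D20R. Src, Axl and Thbs1 differed between them by less than that, at 9.15 and 8.64, 12.10 and 12.36, and 12.18 and 12.53. Of 20 integrin and laminin genes, 2 lay above and 2 below (10.0% each, against 6.16% and 7.0% of all probe sets), or 4 below after quantile normalization. Itgb5, a vitronectin receptor chain, read 9.97 and 10.70 against 8.76 to 9.54.

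Of 22 genes of proteases and their inhibitors, 4 lay above and 4 below (18.2% each, against 6.16% and 7.0% of all probe sets). Mmp14, the membrane-anchored collagenase, read 10.64 and 10.39, and 4T07 was level at 10.41. Timp1, a secreted inhibitor of such enzymes, read 11.23 and 11.85 against 9.91 to 10.90. Mmp19 read 7.08 and 7.21, and 67NR was above at 7.75. On the low side Plau, the urokinase gene, read 5.81 and 6.78, well under 4T07 (10.02) and 4T1 (10.26) but above 67NR (5.24). Adam8, a surface metalloprotease gene, read 6.53 and 6.75 against 6.98 to 8.49.

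Wnt and FGF genes, like the Notch genes above, belong to pathways that mouse mammary tumour virus activates. Of 33 Wnt genes 2 lay above and 1 below (6.06% and 3.03%, against 6.16% and 7.0% of all probe sets), with a median difference of -0.20 and 24 differences below 0 (72.7%, against 62.6% of all probe sets). The genes above were the receptors Fzd7 (9.91 and 8.83 against 7.08 to 8.86) and Fzd2 (8.88 and 8.46 against 7.48 to 8.34), and the gene below was the ligand Wnt10a (7.15 and 7.58 against 7.66 to 9.46). Wnt1, the best known insertion target, was near background at 5.32 and 5.52, while 4T07 read 9.21 and TSA 8.41. Of 23 FGF genes 1 lay above and 3 below (4.35% and 13.0%), or 2 below after centring or quantile normalization. Their median difference was -0.26, and 21 differences were below 0 (91.3%, against 62.6% of all probe sets), with 3 above 0 after centring. The median level of these genes was 6.66 in D2A1 and 6.69 in D20R, under 6.78 and so close to background. All 11 immune, 9 endothelial, 6 adipocyte and 6 skeletal muscle genes also had differences below 0, with 2, 0, 2 and 2 above 0 after centring. The gene above was Fgfr1, at 10.07 and 10.57, though 67NR alone read 10.85. The genes below were the feedback regulators Spry2 (7.56 and 7.55 against 7.61 to 8.48 over the 4 lineages) and Dusp6 (8.47 and 7.35 against 8.50 to 9.99) and Fgfr2, the receptor of mammary epithelium, at 5.11 and 5.29. Among the spontaneous lines Fgfr2 was high in 67NR (8.12), 4T07 (9.47) and 4T1 (9.26) only, and several GEM lines also expressed it, up to 9.34 in 2508. Of 11 genes near known insertion sites 1 lay above (9.09%) and 0 below, against 6.16% and 7.0% of all probe sets. However, 0 lay above and 2 below after centring, and 0 above and 1 below after quantile normalization. The gene above, Eif3e, a translation factor subunit also called Int6, read 9.34 and 9.33, and 4T1 was higher at 9.53. Milk protein genes were read as well, since the nodule of origin was alveolar. Csn2, the beta-casein gene, read 5.11 and 5.35 and Csn1s1 3.89 and 3.87, at background like every other line. Of 21 alveolar and hormone genes, 2 lay above (9.52%, against 6.16% of all probe sets). Below lay 4 (19.0%, against 7.0%), or 1 gene after quantile normalization. Esr1, the oestrogen receptor gene, was among those below, at 6.59 and 6.95 against 7.16 to 8.13. F311, which came from an oestrogen-receptor-negative tumour, read 7.40 within that range, and D2A1 was under 6.78.

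Interferon-response genes were mostly on the high side by value. Of 17 measured, 14 had a difference above 0, against 6273 of 16755 probe sets. The median of the 17 was 0.35 against -0.08 over all probe sets. However, only 2 lay above in both D2 lines (11.8%, against 6.16% of all probe sets) and 0 below (against 7.0%). Irf9, a transcription factor of the pathway, read 9.72 in D2A1 and 8.66 in D20R against 7.20 to 8.18. Ifit2, an antiviral protein gene, read 7.74 and 7.77 against 5.53 to 7.43. For Ifit1, another antiviral gene, D2A1 read 8.82 and D20R 8.12, and EMT6 was higher at 9.11. Between the D2 lines the list was higher in D2A1, by a median of 0.39, against -0.09 over all probe sets. By more than 1 log2 unit, 3 of the 17 genes were higher in D2A1 and 0 in D20R, against 2.12% and 2.19% of all probe sets. GEM lines reached higher, with 780 at 10.21 for Irf9. Of 10 antigen presentation genes 1 lay above (10.0%) and 0 below, against 6.16% and 7.0% of all probe sets. The gene above was the chaperone gene Calr, at 12.22 and 11.94 against 11.31 to 11.88. The median difference of this list was -0.27, and 8 differences were below 0 (80.0%, against 62.6% of all probe sets).

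The D2 lines also differed from each other, which 1 array per line leaves without a replicate check. Between D2A1 and D20R 723 probe sets (4.32%) differed by more than 1 log2 unit. Other pairs of common origin gave 532 (3.18%) for 4T07 and 4T1, 263 (1.57%) for M6 and M6C, 885 (5.28%) for 2508 and 2855, 1708 (10.2%) for 67NR and 4T07, and 2146 (12.8%) for 67NR and 4T1. D2A1 and D20R were thus farther apart than a line and its metastasis and closer than 67NR and its sisters. Over gene-centred values of 16755 probe sets, each D2 line had the other as its closest line (Pearson r 0.35). These are correlations across genes of single arrays and carry no test. The next closest to D2A1 were 780 (0.28) and TSA (0.21), and the next to D20R was EMT6 (0.16).

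Tnc, Has2, Acta2 and Col12a1 were among the genes that differed most, and they were high in D20R. Tnc, which encodes the matrix protein tenascin C, was 5.93 in D2A1 and 10.73 in D20R. Has2, a hyaluronan synthase gene, was 6.75 and 11.34, and Acta2, smooth muscle actin, was 6.71 and 11.23. Col12a1 was 5.53 and 9.89, and the collagen genes Col6a1, Col6a2 and Col6a3 read 7.02, 6.95 and 6.4 in D2A1 and 11.19, 9.66 and 9.07 in D20R. Snai2, a repressor of E-cadherin, was 7.25 and 10.99. In the mesenchymal list 7 of 34 genes were higher in D20R by more than 1 log2 unit and 0 in D2A1. Over all probe sets the shares were 2.19% and 2.12%. D2A1 was below all 6 other spontaneous lines for Tnc, Col6a1, Col6a2 and Col6a3, and D20R was above all of them.

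The other genes highest in D20R over D2A1 were the glutamine transporter gene Slc38a1 (5.52 and 10.89), Creb3l1, a membrane-bound transcription factor of secretory cells (6.28 and 11.21), the serine protease gene Prss23 (5.79 and 10.70) and the splicing regulator Mbnl3 (4.96 and 9.76). The side that stood out from the series varied. Creb3l1 was exceptional in D20R, since every other line read 7.49 or less. Mbnl3 was exceptional in D2A1, since every other line read 9.04 or more. Slc38a1 was low in D2A1 as in EMT6 (5.99) and EPH4 (5.59).

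In the other direction, Akr1c18, which inactivates progesterone, was 9.14 in D2A1 and 4.43 in D20R, and it was also high in 780 (8.98) and p1522 (7.89). Slit2, a guidance ligand of Robo receptors, was 10.31 and 6.75 and was higher in D2A1 than in any other of the 22 lines. Cpne8, a calcium-dependent membrane-binding protein gene, was 9.60 and 6.19. Its level in D2A1 was the highest of the 22 lines, with M6C next at 9.54, and the other lineages averaged 8.54. Plscr2, of the scramblase family, was 10.29 and 7.14, where D2A1 was near the mean of the other lineages (10.12) and D20R was below each of them. Pcbd1, a pterin dehydratase, was 10.69 and 7.65. Tfpi, the inhibitor of tissue factor, was 7.91 and 5.0 and was again highest in D2A1 of all lines, with 4T07 next at 7.06. Egln3, an oxygen-sensing prolyl hydroxylase, was 8.28 and 5.40, both under 67NR, 4T07, 4T1 and TSA at 10.16 to 11.01. Gstk1, a glutathione transferase, was 8.56 and 5.73, and 67NR was level with D2A1 at 8.52.

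**Figure D4:**
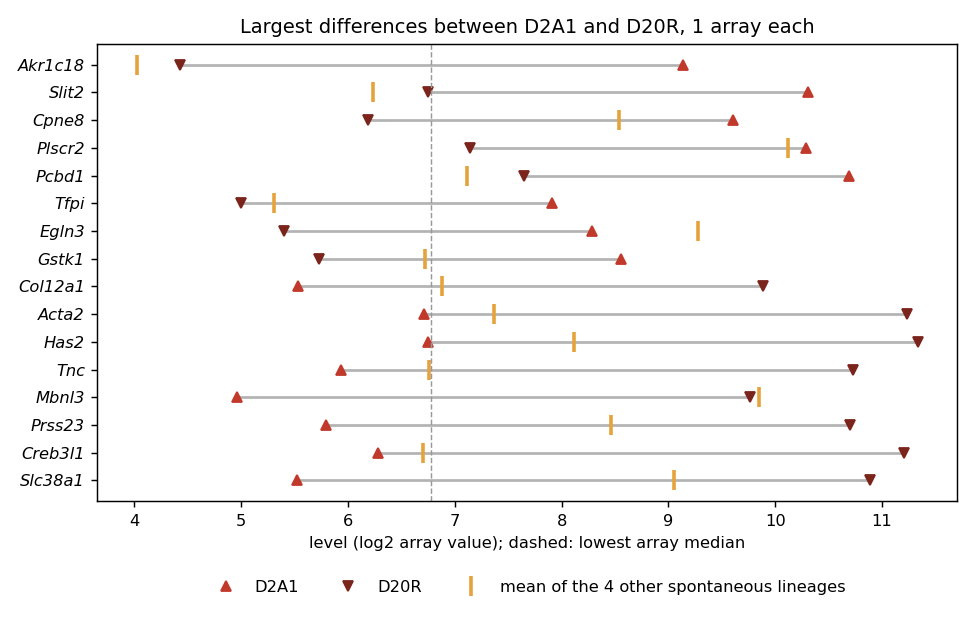
Log2 levels (horizontal axis) of the 8 genes with the largest difference in each direction between D2A1 and D20R, 1 array each, joined by a line, with the mean of the 4 other spontaneous lineages as a bar and the lowest array median of 6.78 dashed. Slit2 and Creb3l1 show 1 D2 line far above the mean of the other lineages and the second near it, and Mbnl3 shows D2A1 far below it.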

How the data were processed

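RNA of 22 cultured mouse mammary lines was read on exon arrays, with 1 array per line. The deposited table, which the authors made, holds 1 normalized value per probe set and line. Its scale is not stated, and the values are read as log2 because they run from 2.74 to 13.9. GCOS and mm9 are named in the submitters' processing notes. The sources used here do not give the normalization. Of 23332 entries, 6577 control and unannotated entries were left out and 16755 tested. Among these, 14996 had 1 gene symbol, 1019 several and 740 none, and only the first are named.

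Lines of shared origin were averaged into 17 lineages. limma 3.58.1 (R 4.3.3) fitted the D2 lineage against 4 other spontaneous lineages, with 10 GEM and 2 immortalized lineages adding to the spread, on 13 residual degrees of freedom. Benjamini-Hochberg adjustment ran over all 16755 probe sets at 0.05. The procedure was tested on simulated data that gave every lineage, D2 included, the same spread for a gene. A D2 lineage with another spread was not tested. With 1 array per line, p-values measure the spread between lineages, and array number limits the precision. Named genes were Hey1, the 12 with the widest gap to the 4 lineages and the 8 with the widest gap to all 20 lines on each side (higher side above its array median), limma calls, 3 members per list, all Notch genes, and the 8 largest differences between D2A1 and D20R on each side. Other members of the lists were also named, and a neighbouring gene was named beside its marker. The lines, the 20 gene lists and the rules were chosen with earlier results of these data known, and 3 further lists (p53, prostanoid and shuttle genes) and the promoter motifs were added after values were seen. Promoters are RefSeq windows on GRCm38.p6 for 5 of 6 genes asked. Files and labels gave no array batches.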

Additional observations from a re-analysis of the deposited data

Results flagged for a closer look

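Among the 4 other spontaneous lineages, F311 stood apart from the remaining 3 in 2 of 37 genes checked by Dixon's criterion, which flags about 1 in 20 groups by chance. For Got1, F311 read 10.17 and the others ran from 11.24 to 11.36, so the gap from F311 down to D20R was -3.96. For Cyria, F311 read 4.83 and the others ran from 4.60 to 4.63, all far below both D2 lines.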

How the results depend on the processing

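No paired analysis was possible because the labels give no replicate numbers and each line has 1 array. Of 624 refits of 37 genes under 17 alternatives, 580 kept direction and call, 28 lost the call, 16 gained it and 0 reversed. Only 5 of the 37 genes were called in the main fit, so most of the 580 were genes that stayed uncalled. The 28 losses all fell on those 5. Ptgs2 kept its call in 17 of 17 fits, Got1 in 15 of 17 and Cd82 in 8 of 17. Morc1 kept it in 7 of 16 and Hs6st2 in 8 of 16. Genes beyond the 4 lineages numbered 596 higher and 553 lower with 6 single lines, 723 lower without the lowest tertile of probe sets by mean level, and 2038 lower over every table entry. Leaving out 1 line or lineage gave 1348 to 2919 higher and 1523 to 6008 lower, and against the whole series 169 to 993 higher and 71 to 863 lower. The largest counts came without D20R, and D2A1 also moved each by over 1.5 times (1965, 2351, 375 and 310 without it), as did 4T for the lower counts (1976 and 104), F311 for the higher (1590) and TSA for both (1651 and 2013). limma gave 0 higher without those probe sets and over every entry (267 and 403 at an unadjusted p under 0.05), 8 with the D2 lines as replicates, 1 with a random lineage block, 11 with no block, and 1 lower in the fit of 5 lineages. Leave-one-out fits gave 0 to 7 higher and 1 to 5 lower. The 0 came without 4T and without TSA (334 and 379 at an unadjusted p under 0.05), and 1 lower came without 4T. Without D2A1 5 were higher and without D20R 7 higher and 5 lower, and without EMT6 1 was higher. The D2 lines as replicates added calls for Sox2, Cyria and Hey1, but they share an origin, so those p-values are too small. Where fewer samples or genes were used the counts changed by construction, and other causes were not tested. D2A1 lay below the 4 lineages at 6008 probe sets and D20R at 2351, and D2A1 had the lowest array median and, at 2.12, the largest array SD. The part of that in the low-side counts was not tested.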
